A study of Homo sapiens with 14 samples.

Results

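The 41 genes described here encode the machinery that copies DNA and the enzymes that make its building blocks. They are a list of known factors for origin licensing, replisome assembly, DNA synthesis and deoxynucleotide (dNTP) synthesis, chosen by role. They were followed through every group of an mRNA-seq series of IMR90, a cell line of human lung fibroblasts with a finite lifespan that is widely used to study senescence. All 41 are listed among the 57791 genes of the old and young tables, the 54628 of the knockdown tables and the 38707 of the ICM tables. There were 7 groups: young and old cells of each of the isolates I79 and I10, I79 cells given ICM, and WT and HMGB2 KD cells. Young cells were proliferating, and old cells had been passaged into replicative senescence. ICM is inflachromene, which binds HMGB1 and HMGB2, and the labels of these libraries give neither its dose nor its duration. HMGB2 KD cells carried an siRNA knockdown and WT cells are labelled wild type, with no isolate, passage or control siRNA named for either.

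Before S phase, the origin recognition complex, CDC6 and CDT1 load the MCM2-7 helicase onto DNA, a step called licensing, and geminin (GMNN) holds CDT1 back afterwards. The kinase CDC7 with its activator DBF4, together with MCM10, then turns the loaded helicase into the active CMG complex of CDC45, MCM2-7 and GINS. Polymerase alpha with primase starts each strand, and polymerases delta and epsilon extend it. The clamp PCNA tethers the polymerases, RFC loads the clamp, RPA covers single-stranded DNA, and FEN1 and LIG1 finish the Okazaki fragments of the lagging strand. Ribonucleotide reductase (RRM1 with RRM2), thymidylate synthase (TYMS) and thymidine kinase (TK1) supply dNTPs. Many of these genes are known targets of E2F factors and are transcribed mainly in cells that enter S phase.

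Each old or young group was deposited as 1 column of estimated counts, whereas I79 ICM, WT and HMGB2 KD had 2 libraries each. Depth was between 14598280 and 20055595 estimated counts in the old and young columns, between 33561766 and 41168932 counts in the WT and HMGB2 KD libraries, and 13290131 and 10971132 reads in the ICM libraries. Levels are given as CPM, counts scaled by TMM to a common library size, unless stated otherwise. CPM of the ICM libraries, and of columns set beside them, use library totals over genes shared by all tables, without TMM. All 10 fibroblast markers examined were above 1 CPM in each kind of table, and summed to between 12730 and 34349 CPM. The epithelial markers summed to between 0.321 and 7.82 CPM and the endothelial markers to between 0.365 and 9.86 CPM. Of the latter, CDH5 was at 0 throughout, VWF stood at 0.448 and 0.365 CPM in young and at 2.82 and 2.49 CPM in old cells (log2 fold change 2.69, adjusted p 0.0131 by edgeR, not called), and KDR was at 4.39 CPM in I79 old, at most 0.192 CPM in the other old and young columns, and between 3.36 and 8.25 CPM in the WT and HMGB2 KD libraries. CD3E, which defines T cells, was at 0 throughout. The immune list summed to between 21.6 and 158 CPM, nearly all from the lysosomal gene CD68, while PTPRC, which defines leukocytes, was at most 0.221 CPM in the old and young columns and at 3 or fewer reads in the other libraries. CD68 rose in old cells (log2 fold change 2.37, adjusted p 0.00659 by edgeR), and the part of these markers in the results was not tested. MCM4 could not be read in the old and young columns: the transcript that the annotation marks as canonical is not among their identifiers, and no reads fell on any of its protein-coding transcripts. It was left out of every value from those columns, a choice made after its values were seen, so 40 members are read there. Since RNA was measured in bulk and scaled to the library, fewer cells that copy DNA and less of a transcript per cell cannot be told apart.

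In replicative senescence, most transcripts of the replication machinery were lower. Of the 40 members, 24 fell and none rose, at an adjusted p under 0.01 and a log2 fold change beyond 0.6 (edgeR's quasi-likelihood test, with isolate as a covariate). Among all 15116 genes tested, 9.57% were called in either direction and 3.82% were called lower. The median log2 fold change of the 40 members was -1.74, against -0.01 for all genes tested. Both old columns lay below both young columns for 39 of the 40 members, compared with 37.5% of all genes. The isolates were the only replicates of this test, which left 1 residual degree of freedom. Of the members that were not called, 4 (ORC6, GINS3, POLE2 and RFC2) had adjusted p-values between 0.01 and 0.011, and 35 members passed at an adjusted p under 0.05. In I79 alone the median was -1.55 and in I10 alone -1.70.

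**Figure D1:**
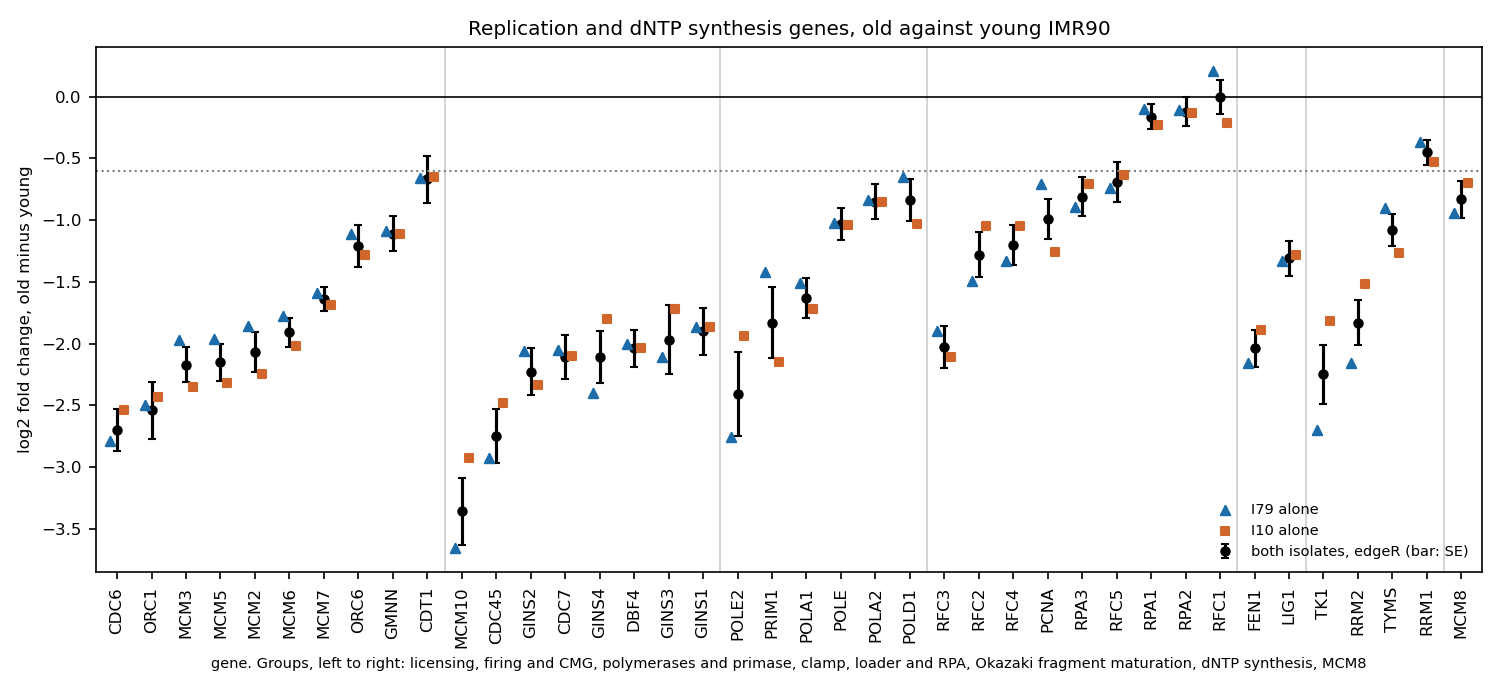
Log2 fold change of old against young cells (vertical axis) for 40 replication and dNTP synthesis genes (horizontal axis, grouped by role). Black points are the edgeR estimates over both isolates with their SE, blue triangles are I79 alone, orange squares are I10 alone, and the dotted line marks -0.6. MCM10 is lowest at -3.36, and RFC1, RPA1 and RPA2 lie near 0.

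Among the licensing genes, 8 of the 10 that could be read fell, with a median log2 fold change of -1.99. CDC6, the ATPase that recruits the helicase to origins, went from 22.8 to 3.20 CPM (I79) and 23.4 to 3.92 CPM (I10). This was the largest fall of the group, at -2.70 (SE 0.17, adjusted p 0.00356). ORC1, the origin recognition subunit that cycles with division, went from 9.09 to 1.52 CPM (I79) and 10.3 to 1.82 CPM (I10) (-2.54, SE 0.23, adjusted p 0.00499). For both genes the old columns were several times lower than the young ones and the isolates nearly coincided. The helicase subunits MCM2, MCM3, MCM5, MCM6 and MCM7 fell by between 1.64 (MCM7) and 2.17 (MCM3) on the log2 scale. MCM3 went from 69.3 to 17.6 CPM (I79) and 79.5 to 15.5 CPM (I10) (adjusted p 0.00357). MCM7 went from 100 to 33.1 CPM (I79) and 102 to 31.7 CPM (I10) (adjusted p 0.00356). The regulators and ORC6 had the estimates closest to 0. GMNN fell by 1.11 (SE 0.14, adjusted p 0.00826). CDT1 stood at 9.73 and 8.50 CPM in the young columns and at 6.13 and 5.36 CPM in the old ones, which did not overlap, but its log2 fold change of -0.67 (SE 0.19) missed the threshold (adjusted p 0.0528). ORC6 missed it narrowly (-1.21, adjusted p 0.0102).

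The firing and CMG group held the largest single change. MCM10, which is needed to activate the loaded helicase, went from 15.7 to 1.14 CPM in I79 (245 to 21 estimated counts) and from 15.0 to 1.88 CPM in I10 (288 to 34). Its log2 fold change of -3.36 (SE 0.27, adjusted p 0.00434) corresponds to a level 10.2-fold lower. CDC45, the helicase cofactor, went from 15.2 to 1.90 CPM (I79) and 15.0 to 2.6 CPM (I10) (-2.75, SE 0.22, adjusted p 0.00434). Both genes were below 3 CPM in the old column of either isolate and at or above 15 CPM in the young. In all, 7 of the 8 genes of this group fell, with a median of -2.11. The kinase CDC7 (-2.11) and its activator DBF4 (-2.04) fell by similar amounts. The GINS subunits called were GINS2 (-2.23), GINS4 (-2.11) and GINS1 (-1.90, the smallest change of the group). GINS1 went from 11 to 2.93 CPM (I79) and 14.2 to 3.81 CPM (I10). GINS3 stood at 6.21 and 6.83 CPM in young and at 1.36 and 1.99 CPM in old cells and missed the threshold (-1.97, SE 0.28, adjusted p 0.0103).

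Of the 6 polymerase and primase genes, 2 were called. POLA1, the catalytic subunit of polymerase alpha, went from 19.0 to 6.62 CPM (I79) and 20.3 to 6.08 CPM (I10) (-1.63, SE 0.16, adjusted p 0.00576). POLE, the catalytic subunit of polymerase epsilon, went from 30.4 to 15.0 CPM (I79) and 31.2 to 15.1 CPM (I10) (-1.03, adjusted p 0.00806). The largest estimates of the group belonged to genes with few reads. POLE2, the second epsilon subunit, had 102 and 132 estimated counts in the young columns and 16 and 31 in the old ones (-2.41, SE 0.34, adjusted p 0.0104). PRIM1, the primase subunit that makes the RNA primer, had 105 and 167 counts in young and 45 and 34 in old cells (-1.83, SE 0.29, adjusted p 0.0139). POLD1, the catalytic subunit of polymerase delta, had the smallest estimate and was not called, at 18.8 and 11.9 CPM in young and old I79 and at 20 and 9.73 CPM in I10 (-0.84, adjusted p 0.0239). POLA2, the regulatory subunit of polymerase alpha, had -0.85 (adjusted p 0.0156). For all 6 genes both old columns lay below both young ones.

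The clamp, clamp loader and RPA group had the median closest to 0 of the groups with more than 1 gene, with a log2 fold change of -0.81 and 2 of 9 genes called. RFC3, a small subunit of the clamp loader, went from 16.9 to 4.45 CPM (I79) and 21.1 to 4.81 CPM (I10) (-2.03, SE 0.17, adjusted p 0.00461). RFC4 fell by 1.20 (adjusted p 0.00963), and RFC2 had a similar estimate that was not called (-1.28, adjusted p 0.0101). RFC1, the large subunit of the same complex, had an estimate of 0.00 (SE 0.14, adjusted p 0.989). Its level went from 62.5 to 72.0 CPM (I79) and 66.7 to 57.6 CPM (I10), so that it alone among the 40 members had opposite signs in the isolates. PCNA stood at 91.0 and 94.4 CPM in young and at 55.6 and 39.2 CPM in old cells (-0.99, SE 0.16, adjusted p 0.0144). RPA1 and RPA2, the larger subunits of the single-strand binding complex, had log2 fold changes of -0.16 (SE 0.10) and -0.12 (SE 0.12). RPA2 stood at 24.8, 23.0, 25.0 and 22.9 CPM in I79 young, I79 old, I10 young and I10 old. RPA3, the smallest subunit, had -0.81 (adjusted p 0.0234), and RFC5, another clamp loader subunit, -0.69 (adjusted p 0.0339).

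FEN1, the flap nuclease of Okazaki fragments, went from 31.2 to 6.89 CPM (I79) and 29.5 to 7.85 CPM (I10) (-2.04, SE 0.15, adjusted p 0.00415). LIG1, the ligase that seals them, went from 23.7 to 9.39 CPM (I79) and 26.0 to 10.7 CPM (I10) (-1.31, SE 0.14, adjusted p 0.00626). Both genes of Okazaki fragment maturation therefore fell. FEN1 overlaps FADS2 on the same strand, so reads of the pair may not be fully separable. The call of LIG1 was lost with protein-coding transcripts only (-1.83, adjusted p 0.0198) and with counts rebuilt from TPM (-0.91, adjusted p 0.0223).

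Of the 4 dNTP synthesis genes, 3 fell. TK1, the S phase thymidine kinase, went from 73.4 to 11.2 CPM (I79) and 75.1 to 21.2 CPM (I10) (-2.25, SE 0.24, adjusted p 0.00601). RRM2, the cell cycle regulated subunit of ribonucleotide reductase, went from 107 to 24.0 CPM (I79) and 126 to 43.9 CPM (I10) (-1.83, SE 0.18, adjusted p 0.00559). Its call was lost without the isolate covariate (adjusted p 0.012). TYMS went from 74.3 to 39.9 CPM (I79) and 77.8 to 32.2 CPM (I10) (-1.08, adjusted p 0.00794). RRM1, the large subunit, stood at 129 and 136 CPM in young and at 99.8 and 94.2 CPM in old cells (-0.45, SE 0.10, adjusted p 0.0319). The subunits of one enzyme thus had estimates of -1.83 and -0.45. MCM8, a helicase of recombination and repair that is not part of MCM2-7, had -0.83 (SE 0.15) and was not called (adjusted p 0.0194).

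The isolates started from nearly the same level. In young cells no member differed between I10 and I79 by more than 0.6 on the log2 scale, and the differences ran from -0.19 to 0.37. In old cells 4 members did, POLE2, RRM2, TK1 and MCM10, and each was higher in I10. The old against young change differed between isolates by more than 0.6 for 5 of the 40 members, compared with 21.0% of all genes. With 1 column per isolate and age this difference was not tested. TK1 had a change of -2.70 in I79 and -1.82 in I10, and the counting intervals (-2.93 to -2.49 and -1.99 to -1.66) did not overlap. RRM2 likewise had -2.16 (-2.32 to -2.01) in I79 and -1.52 (-1.64 to -1.41) in I10. These 95% intervals are Clopper-Pearson intervals on the old column's share of the counts and cover counting error only. For MCM10 (-3.66 and -2.93), POLE2 (-2.76 and -1.94) and PRIM1 (-1.42 in I79 and -2.15 in I10) the intervals overlapped. PRIM1 was the only gene of the 5 with the larger change in I10. Over all 40 members, 22 had the lower value in I10. Among these, the intervals of the isolates also did not overlap for PCNA (-0.83 to -0.59 in I79, -1.39 to -1.14 in I10), TYMS (-1.03 to -0.76 and -1.41 to -1.13), RFC1 (0.09 to 0.33 and -0.33 to -0.09) and, narrowly, MCM3 (-2.16 to -1.80 and -2.55 to -2.17). Of 5 genes examined as checks of the senescent state, only MKI67, a proliferation marker, differed between isolates by more than 0.6 (-3.15 in I79 and -2.07 in I10). CDKN1A, the p21 inhibitor of cell division, had 2.73 and 2.24, and LMNB1, lamin B1, -3.14 and -2.57. E2F1 had -1.43 and -1.18, and HMGB2 -1.67 and -1.61. The part of these in the members' differences was not tested.

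Levels of different genes can be compared only per length, and for this the deposited TPM was used. Among the readable subunits of the MCM2-7 helicase, MCM2 was lowest and MCM7 highest in all 4 columns. The highest was 3.35 times the lowest in I79 young and 4.33 times in I79 old, with 3.10 and 5.58 times in I10. TPM of MCM7 includes a transcript with a retained intron that held 41.5% of it in I79 old and 51.1% in I10 young. The clamp loader had the widest range of these complexes in old cells. Its subunits spanned 12.6 (RFC3) to 31.8 TPM (RFC4) in I79 young, a range of 2.53 times. In I79 old they spanned 2.96 (RFC3) to 28.2 TPM (RFC1), a range of 9.53 times, and in I10 the range went from 2.42 to 8.14 times. RRM2 stood at 1.40 times the TPM of RRM1 in I79 young and at 0.336 times in I79 old, and at 1.47 and 0.769 times in I10. These ratios sum all transcripts of a gene. Protein-coding transcripts held between 45.7% and 52.8% of the TPM of RRM2 in the 4 columns, but between 87.4% and 100% of that of RRM1. The order of RRM2 and RRM1 therefore depends on which transcripts are counted. The subunits of GINS all stood between 5.31 and 16.4 TPM in young cells and between 1.26 and 4.75 TPM in old cells. RPA1 was at 45.0 and 48.0 TPM in I79 young and old, whereas RPA3 was at 49.5 and 21.9 TPM. These are 1 value per group, and no error can be attached to them.

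**Figure D2:**
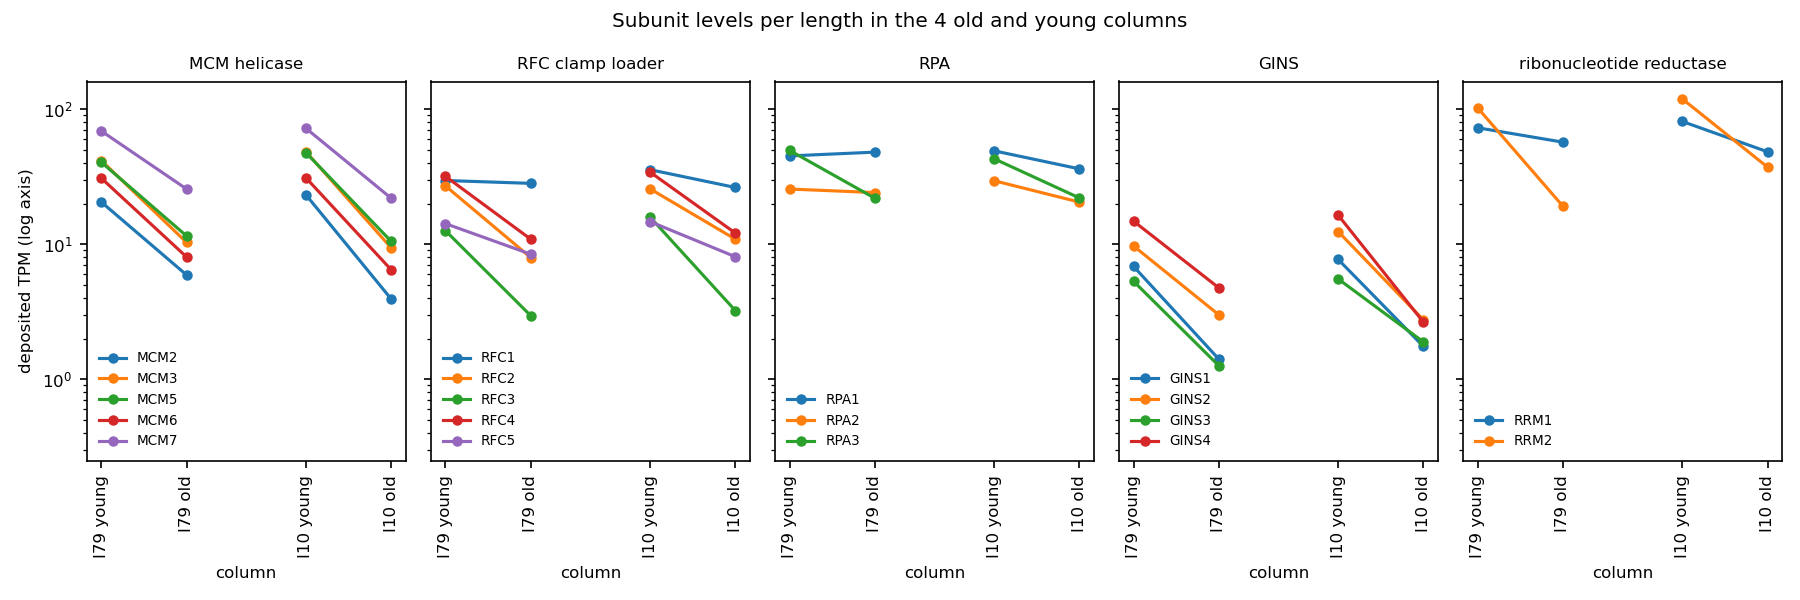
Deposited TPM (vertical log axis) of the subunits of 5 complexes in the I79 young, I79 old, I10 young and I10 old columns (horizontal axis), with 1 line per gene and isolate. TPM is summed over all transcripts of a gene, coding or not. All MCM and GINS lines run downward, RFC1 (29.6 to 28.2) and RPA1 (45.0 to 48.0) are nearly level in I79 but not in I10 (35.6 to 26.3 and 49.1 to 36.1), and the RRM2 line crosses that of RRM1 in both isolates.

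At transcript level, 27 of the 40 members had the same leading transcript in all 4 columns. The share of a member's TPM in protein-coding transcripts had a median of 95.8% in young and 87.5% in old cells of I79, and of 88.2% and 83.9% in I10. It was lower in old cells for 18 of the 40 members in I79, for 23 in I10 and for 15 in both isolates. This share was not computed over all genes. DBF4 stood apart: a transcript annotated for nonsense-mediated decay held between 52.3% and 63.5% of its TPM in the 4 columns, and protein-coding transcripts at most 2.26%. Its call was lost with coding transcripts only (-3.44, adjusted p 0.0868). For GINS4 a retained-intron transcript led in I79 old with 62.2% of the TPM, while the coding transcript GINS4-201 led in the other columns. Such splits are estimates from reads that transcripts share.

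Because many members are known E2F targets, their promoters were searched for the E2F motif. RefSeq promoter windows (GRCh38.p14, 250 bases before to 50 after the annotated start) were matched for 36 of the 41 members, in 46 windows. The E2F motif was searched as TTTCCCGC, TTTCGCGC, TTTGCCGC or TTTGGCGC on either strand. It was present in 43.5% of the member windows, against 3.31% of all 35116 windows and 4.10% of windows of protein-coding genes. Of the 36 members, 20 had it in at least 1 window. The CHR element, TTTGAA on either strand, was in 2 of the 36 members (DBF4 and RRM1). It was in 4.35% of the member windows, against 15.2% of all windows. CCAAT on either strand was in 22 members, and in 58.7% of the member windows against 34.6% of all windows. E2F matches overlapped each other in 2 members (MCM2 and MCM6), and an E2F match shared a base with CCAAT in 1 (MCM7).

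The stretches below run from base -80 to base 20 around the annotated start, 5′ to 3′ on the strand of the gene, with the E2F letters in capitals. They were chosen to set 6 members with a match beside the member with the largest fall, MCM10, and the one with the estimate nearest 0, RFC1, which have none. CDC6 is at chr17:40287799-40287898 (plus strand), with its match at bases 8 to 15. MCM2 is at chr3:127598331-127598430 (plus), where matches on both strands overlap from base 3 to base 14. MCM3 is at chr6:52284723-52284822 (minus), with 1 match here from base -4 to base 4 and another at -174 outside the stretch. MCM7 is at chr7:100101378-100101477 (minus), with a match at bases -9 to -2 and another at -187. RFC3 is at chr13:33818069-33818168 (plus) with a match at bases -55 to -48, and PCNA at chr20:5126603-5126702 (minus) with a match at bases -59 to -52. MCM10 is at chr10:13161478-13161577 (plus) and RFC1 at chr4:39366343-39366442 (minus).
CDC6: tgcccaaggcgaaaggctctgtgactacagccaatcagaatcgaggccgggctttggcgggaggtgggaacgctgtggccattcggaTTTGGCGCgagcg
MCM2: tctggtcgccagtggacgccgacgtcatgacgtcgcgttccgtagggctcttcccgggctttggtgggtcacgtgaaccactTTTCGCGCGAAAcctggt
MCM3: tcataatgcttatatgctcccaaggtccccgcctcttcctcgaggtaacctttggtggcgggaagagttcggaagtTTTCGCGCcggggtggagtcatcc
MCM7: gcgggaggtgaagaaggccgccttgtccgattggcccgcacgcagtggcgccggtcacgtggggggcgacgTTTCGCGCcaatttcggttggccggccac
RFC3: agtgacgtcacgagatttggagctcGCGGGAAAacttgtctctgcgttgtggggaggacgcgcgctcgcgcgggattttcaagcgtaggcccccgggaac
PCNA: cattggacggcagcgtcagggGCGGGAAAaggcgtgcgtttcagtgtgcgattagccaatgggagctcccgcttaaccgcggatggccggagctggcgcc
MCM10: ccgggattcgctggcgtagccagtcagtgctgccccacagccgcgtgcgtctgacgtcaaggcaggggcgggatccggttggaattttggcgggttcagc
RFC1: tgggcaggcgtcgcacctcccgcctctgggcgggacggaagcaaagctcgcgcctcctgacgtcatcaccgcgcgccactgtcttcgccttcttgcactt

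Members with and without the E2F letters spanned overlapping changes. The 20 with a match had a median log2 fold change in old cells of -1.77, from -2.70 (CDC6) to -0.67 (CDT1), and 14 of them were called. The 16 matched members without it had a median of -1.55, from -3.36 (MCM10) to 0.00 (RFC1), and 8 were called. No match means only that these letters are not in the window, and a match is a description of the letters alone.

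Further genes of the same pathways, from lists of other replication and nucleotide genes, moved less uniformly. For comparison, 578 of all 15116 genes tested were called lower (3.82%) and 869 were called higher. Of 32 other replication factors, 8 fell and none rose, with a median of -0.89. Among those called, the largest falls were in CLSPN, the checkpoint mediator claspin (-2.82, adjusted p 0.0041), ASF1B, a histone chaperone (-2.10, adjusted p 0.00482), TIMELESS, of the fork protection complex (-1.86, adjusted p 0.00446), and DNA2, a flap nuclease (-1.80, adjusted p 0.0069). TICRR, which helps to start replication, had -2.19 and was not called (adjusted p 0.0124). ORC2, ORC3, ORC4 and ORC5 had -0.51, 0.30, -0.57 and -0.97 and were not called. Among other dNTP enzymes, RRM2B, the p53-inducible subunit that can replace RRM2, rose from 39.2 to 184 CPM (I79) and 42.9 to 141 CPM (I10) (1.97, SE 0.16, adjusted p 0.00426). In TPM, RRM2B stood at 0.169 times RRM2 in I79 young and at 3.53 times in I79 old, and at 0.154 and 1.42 times in I10. DCTPP1, which degrades dCTP, fell by 1.12 (adjusted p 0.00933). Of 19 readable genes for de novo purine and pyrimidine synthesis, 5 fell and 1 rose, with a median of -0.47. Those that fell most were SHMT1 (-2.08, adjusted p 0.00569), a folate enzyme, PFAS (-1.32, adjusted p 0.00806), CAD (-0.91, adjusted p 0.00693) and GART (-0.80, adjusted p 0.00939). PRPS1, which makes the ribose precursor of nucleotides, rose (0.95, adjusted p 0.0069). HMGB2 also fell in old cells (-1.64, adjusted p 0.00356), as did E2F1 (-1.32, adjusted p 0.00997).

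The HMGB2 KD libraries show the same transcripts when HMGB2 itself is targeted. HMGB2 itself stood at 27.1 and 27.3 CPM (WT) against 3.22 and 3.64 CPM (HMGB2 KD) (log2 fold change -2.99, SE 0.16, adjusted p 8.28e-07 by edgeR). Of the 41 replication and dNTP synthesis genes, 0 were called, while 5.20% of the 15338 genes tested were. At an unadjusted p under 0.05 there were 3 members, against 3662 of the 15338 genes, and the DESeq2 Wald test called 0 as well. The median log2 fold change of the members was -0.12, against 0.00 for all genes, and single values ran from -0.60 (CDC45) to 0.42 (RFC2). The libraries of the groups were fully separated for 25 of the 41 members, compared with 53.8% of all genes, and 25 of the 41 had a negative sign. The labels do not say whether libraries of 1 group came from separate cultures, so these p-values measure the spread between libraries, which may be technical.

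**Figure D3:**
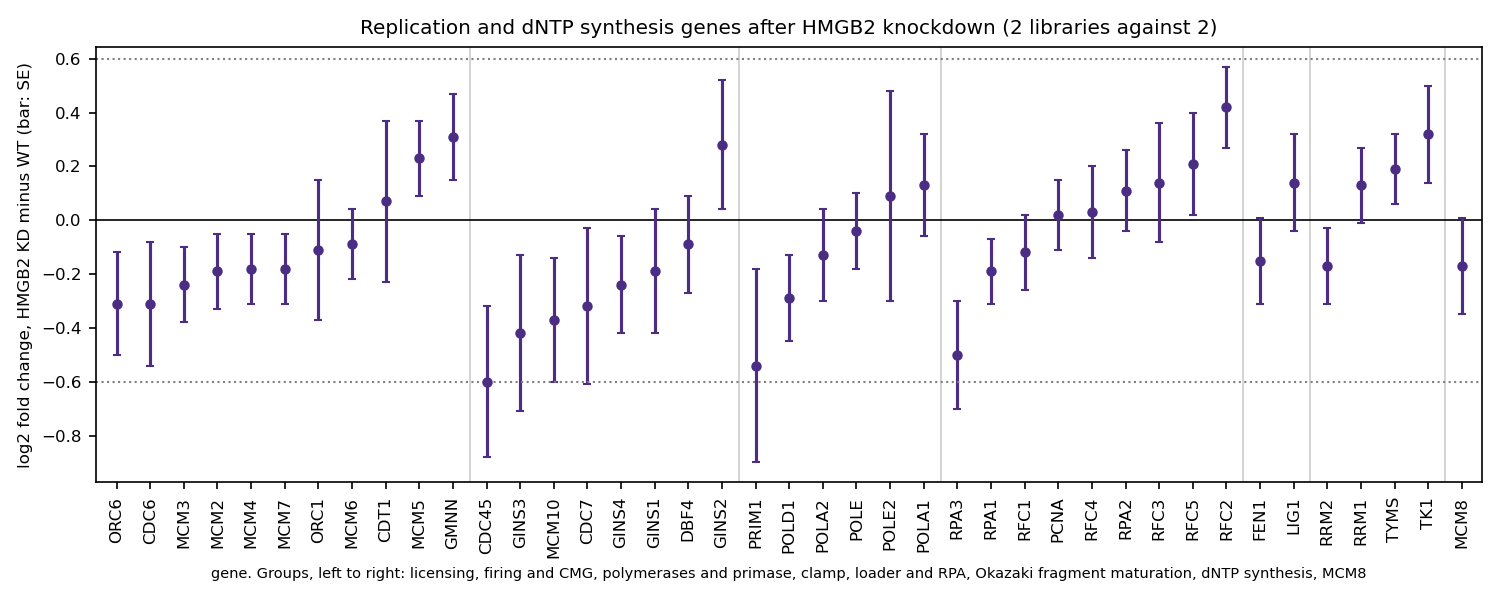
Log2 fold change of HMGB2 KD against WT (vertical axis) for the 41 genes (horizontal axis, grouped by role), with SE from edgeR over 2 libraries per group. The dotted lines mark -0.6 and 0.6, and all points lie at or between them.

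RFC2 had the smallest p. It stood at 14.4 and 13.2 CPM (WT) against 18.6 and 18.2 CPM (HMGB2 KD), a log2 fold change of 0.42 (SE 0.15) that was not called (adjusted p 0.0865 by edgeR). RPA3 stood at 7.89 and 7.55 CPM (WT) against 5.41 and 5.49 CPM (HMGB2 KD) (-0.50, SE 0.20, adjusted p 0.131). For both genes the difference between groups exceeded the spread within either. CDC45 stood at 6.37 and 4.66 CPM (WT) against 4.48 and 2.78 CPM (HMGB2 KD) (-0.60, SE 0.28, adjusted p 0.203), so that the groups nearly touched. Its estimate was -0.99 without HMGB2 KD replicate 1, -0.29 without HMGB2 KD replicate 2 and -0.36 without WT replicate 1. GMNN, the licensing inhibitor, stood at 11.3 and 11 CPM (WT) against 14.1 and 13.5 CPM (HMGB2 KD) (0.31, SE 0.16, adjusted p 0.249). The MCM2-7 subunits had log2 fold changes between -0.24 (MCM3) and 0.23 (MCM5). MCM4, which these tables do list with reads, was at 37.3 and 35.8 CPM (WT) against 31.2 and 33.2 CPM (HMGB2 KD) (-0.18, SE 0.13). MCM10 and CDC6, among the largest falls in old cells, had -0.37 (SE 0.23) and -0.31 (SE 0.23) here. Standard errors were between 0.12 and 0.39, the largest for POLE2, which had 45 to 81 counts per library. None of the 3 wider lists had a member called lower. MTHFD2, a mitochondrial folate enzyme, rose (1.25, adjusted p 1.12e-04), as the 1 gene called among them. ASF1B and CHTF8 (0 reads), SHMT1 (1 to 16) and NME2 (7 to 18) had too few reads per library in these tables to be tested. In I79 young they had 197, 971, 173 and 4307 estimated counts, and the reason for this contrast between tables was not tested. MKI67 had a log2 fold change of 0.00 (WT 32.1 and 37.8 CPM, HMGB2 KD 31.0 and 39.1 CPM).

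The ICM libraries could be set only against tables that had been counted in another way, so the values below are ratios between tables, with no test. Counting and treatment cannot be told apart in them. CPM were scaled here to library totals over the shared genes, without TMM, so they differ from the levels given above. On CPM over shared genes, 38 of the 40 readable members were lower in the ICM libraries than in I79 young by more than 0.6 on the log2 scale, compared with 29.7% of 19222 genes. The members had a median log2 ratio of -2.68, and all genes 0.08. The WT libraries, which the labels do not link to ICM, were also lower than I79 young by more than 0.6, for 34 of the 40 members against 27.2% of all genes, with a median of -1.18. Set against WT, the ICM libraries were lower by more than 0.6 for 31 of the 40 members (23.4% of all genes), with a median of -1.31. Against I79 old this held for 21 of the 40 (25.3% of all genes), with a median of -0.71. Beside these, set against I79 young MKI67 had a log2 ratio of -7.84 (ICM) and -2.54 (WT), and CDKN1A of 3.09 and 1.67. LMNB1 had -7.32 and -1.94, HMGB2 -4.73 and -2.22, and E2F1 -1.32 and -1.31. In the ICM libraries MKI67 had 15 and 7 reads and LMNB1 10 and 2.5. The part of a lower share of dividing cells in either ratio was not tested. On this scale the WT mean lay between I79 young and I79 old for 31 of the 40 members.

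**Figure D4:**
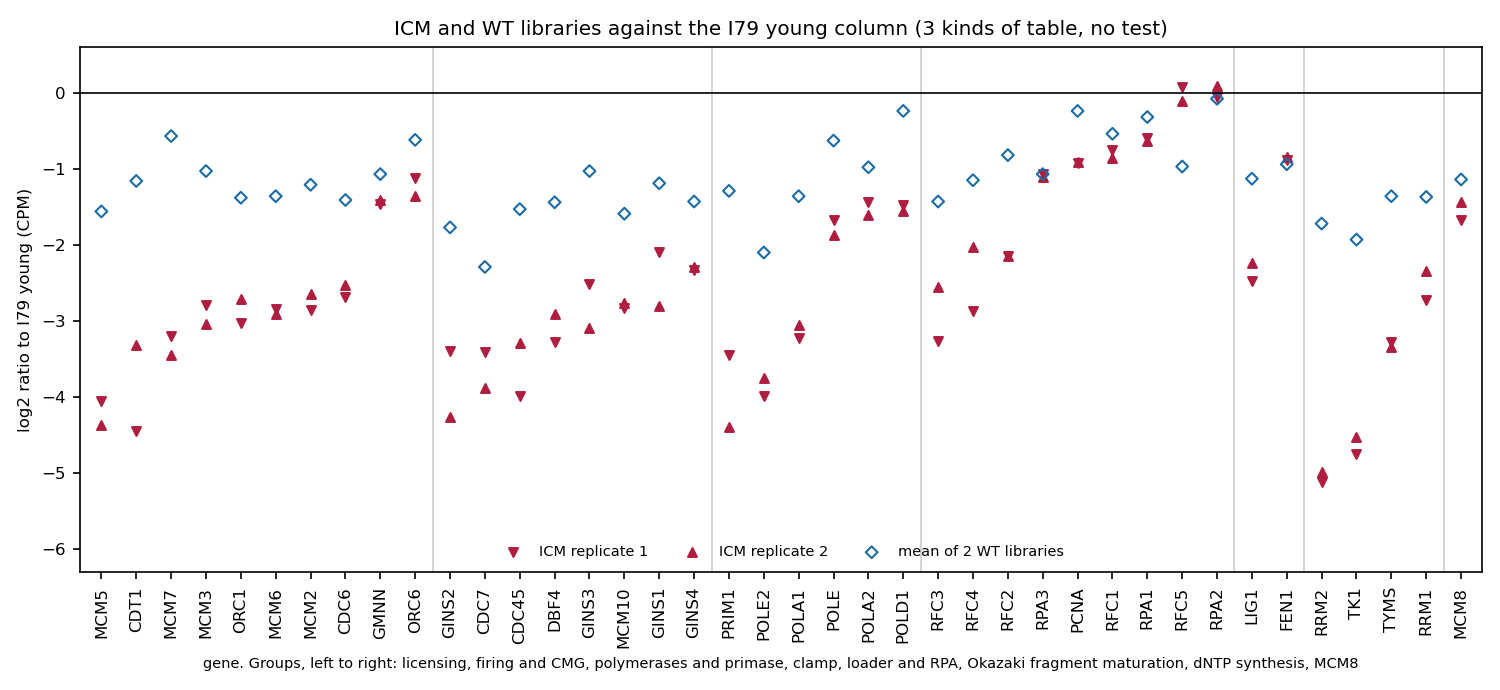
Log2 ratio to the I79 young column (vertical axis, CPM over shared genes) for 40 genes (horizontal axis, grouped by role). Filled triangles pointing down and up are ICM replicates 1 and 2 and open diamonds the mean of the 2 WT libraries. RRM2 is lowest in ICM at -5.05, and RFC5 and RPA2 lie near 0.

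The dNTP synthesis genes had the lowest median ratio of the groups (-3.97), and single genes of other groups lay below TYMS and RRM1. RRM2 had 1675 estimated counts in I79 young and 44.2 and 40 reads in the ICM libraries, which is 121 CPM against 3.55 ± 0.233 CPM (SD, n = 2), a log2 ratio of -5.05. In WT that ratio was -1.72. TK1 stood at 82.6 CPM in I79 young and 3.26 ± 0.382 CPM in ICM (-4.63, WT -1.93), and TYMS at 83.5 and 8.34 ± 0.237 CPM (-3.31, WT -1.36). RRM1, which was not called in old cells, stood at 145 CPM in I79 young and 25.3 ± 4.84 CPM in ICM (-2.53, WT -1.37). Against I79 old, these 4 genes were lower in ICM by between 1.77 (TK1) and 2.73 (RRM2) on the log2 scale.

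For the licensing group the ICM to I79 young ratio had a median of -2.87 (log2). MCM5 stood at 49.6 CPM in I79 young and 2.62 ± 0.418 CPM in ICM (-4.21, WT -1.56), and MCM7 at 112 and 11.2 ± 1.33 CPM (-3.32, WT -0.57). MCM4 can be compared between ICM and WT, where it stood at 20.4 ± 1.68 CPM against 40 and 38.3 CPM (log2 ratio -0.94). CDT1, which missed the threshold in old cells, had 5.5 and 11 reads in the ICM libraries (-3.88, WT -1.16), and its libraries differed by more than 1 log2 unit (-4.44 and -3.32). GMNN and ORC6 had the ratios closest to 0 of the group, -1.44 and -1.24. In the firing and CMG group ratios ran from -3.82 (GINS2) to -2.31 (GINS4). MCM10 had -2.79. PRIM1, with 8 and 3 reads, had the lowest ratio of the polymerase group (-3.92). Because 8 members had fewer than 20 reads in both ICM libraries, their ratios rest on few reads.

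The clamp, loader and RPA group had the ratios nearest to 0, with a median of -0.91. RPA2 stood at 27.9 CPM in I79 young and 28.3 ± 2.04 CPM in ICM (0.02, WT -0.08). RFC5, a small clamp loader subunit, stood at 15.8 and 15.7 ± 1.36 CPM (-0.02), whereas in WT its ratio was -0.97. It overlaps WSB2 on the opposite strand, so reads of the pair may not be fully separable. The other loader subunits ranged from -2.91 (RFC3) to -0.81 (RFC1). RPA1 had -0.62, PCNA -0.91 and RPA3 -1.09. FEN1 had -0.86 in ICM and -0.94 in WT, and was higher in ICM than in I79 old (1.47). With 2 other members, MCM10 (1.06) and RFC5 (0.89), it was above I79 old by more than 0.6, and the remaining 37 were not.

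By position, 26 of the 41 members overlap another annotated gene of GRCh37 (hg19) and 14 overlap another protein-coding gene, and 10 have named pseudogenes. Whether strand was used in counting is not stated, so reads of such pairs may not be separable. The pairs on opposite strands include TYMS with ENOSF1, RFC4 with EIF4A2, RFC5 with WSB2, RPA3 with UMAD1 and MCM7 with AP4M1. PRIM1 and NACA overlap on the same strand. PCNA, RPA2, DBF4 and RRM2 have 3 named pseudogenes each, to which similar reads could be assigned.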

How the data were processed

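Poly(A)-selected RNA of IMR90 cells was sequenced, and groups were taken from the sample titles. For old and young cells the authors deposited estimated counts and TPM per transcript, in 1 column per group (pooled or a single replicate, which is not stated), from a tool not given in the sources used here. Transcript IDs were matched to GENCODE v44 on GRCh37 without their version (97.7% of IDs), summed per gene and rounded. The ICM tables, as deposited, hold estimated counts for each gene and region. The WT and HMGB2 KD tables hold the deposited raw counts of each gene, from which lines that name no gene (16.9% to 18.0% of each table) were left out. The submitters' processing notes name STAR 2.6.0c, featureCounts and DESeq2. Differences were tested with edgeR 4.0.16 in R 4.3.3 (quasi-likelihood, TMM, filterByExpr, Benjamini-Hochberg adjustment over all genes) and DESeq2 1.42.0 as an alternative, and calls needed an adjusted p under 0.01 with a log2 fold change beyond 0.6. HMGB2 KD was set against WT without covariates, and old against young with isolate as a covariate. Both designs were tested on simulated data. Ratios between tables used log2 CPM with a prior count of 2 over 25309 genes listed in all 3 kinds of table. Library totals over these genes were used without TMM, and genes with at least 1 read in I79 young or ICM were compared. Over genes, chi-square per degree of freedom between libraries was 24.7 (WT), 37.6 (HMGB2 KD) and 2.2 (I79 ICM). Each is more than sampling noise alone would give, and no p-value was computed. Part of the list of other dNTP enzymes is not reported here. Promoter windows came from RefSeq (GRCh38.p14). The members and lists were chosen with earlier results of these data known. All 41 members could be named, and values for each library were given for the largest and smallest changes in each group, the 4 smallest p-values after knockdown, differences between isolates over 0.6 or in sign, and low counts. Further members with column values were chosen after those were seen.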

Additional observations from a re-analysis of the deposited data

Results flagged for a closer look

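RFC1 stood out because its change had opposite signs in the isolates. I79 had 976 estimated counts when young and 1328 when old, a log2 change of 0.21 on CPM (counting interval 0.09 to 0.33). I10 had 1279 and 1043, a log2 change of -0.21 (-0.33 to -0.09). The I79 minus I10 difference was 0.42, and with 1 column per group it was not tested. No group had 4 or more libraries, so no single library could be examined for standing apart from its group.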

How the results depend on the processing

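Of the 24 members called in old cells, 19 kept their call and direction under each of the 5 other fits (DESeq2, no filter on low counts, no isolate covariate, counts from TPM, protein-coding transcripts only). Between 23 (coding transcripts only) and 35 members (no filter) were called. Calls lost were GMNN and LIG1 with counts from TPM, DBF4, RFC4 and LIG1 with coding transcripts only, and RRM2 without the covariate. RFC1 changed sign with DESeq2 (0.00), without the covariate (0.01) and with coding transcripts only (0.02), as did RPA1 with counts from TPM (0.01). The number of genes called rose from 1447 to 4251 with no filter and to 3860 at an adjusted p under 0.05. The member median was -1.55 with counts from TPM and -1.55 in I79 alone. Adding MCM4, an alternative chosen after seeing the data, gave a median of -1.83 in old cells and -2.61 for ICM, and left the numbers of members at 24 and 38.

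After HMGB2 knockdown 0 members were called under every alternative run. Without 1 library at a time, the number of genes called ran from 312 (without HMGB2 KD replicate 2) to 999, and the member median from -0.15 to -0.07. With the replicate number as a block, 1243 genes and 0 members were called, against 797 and 0 without it. Over genes, replicate 1 deviations of WT and HMGB2 KD from their group means correlated by 0.124. This does not establish a pairing of the libraries.

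The ICM median ratio was -2.54 from coding and noncoding reads only, -2.36 over the 31 members with a mean of at least 100 counts, -1.31 with WT as the reference and, chosen after seeing the data, -0.71 with I79 old, where 21 members were lower by more than 0.6. Without 1 ICM library it was -2.76 or -2.59. The cause was not tested for any of these shifts. Depth limits values such as POLE2 in I79 old (16 estimated counts) and PRIM1 in the ICM libraries (8 and 3 reads).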

Other observations

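MCM4 had 21 and 15 estimated counts in I79 young and I79 old and 164 and 1 in I10 young and I10 old, all on transcripts annotated as retained introns, nonsense-mediated decay or without a defined coding sequence. In the WT and HMGB2 KD libraries it stood between 31.2 and 37.3 CPM.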
